A study of Rattus norvegicus with 15 samples.

Results

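Among 16782 tiled regions of the rat genome, 377 held a MeDIP/input ratio in the blood of 3 rats treated with LTF that lay outside the range of the 12 other rats of the study. LTF is Luo-tong formula, a Chinese herbal formula given here to rats with streptozotocin-induced diabetes. A region was a run of at least 3 probes with gaps of at most 500 bp. Spots marked as outliers by the scanner software were left out array by array, and each array was centred on its median. The value of a region on an array was the mean log2(MeDIP/input) of its remaining probes, so arrays could differ in the probes averaged. A region was a member when all 3 LTF arrays lay above, or all 3 below, all 12 other arrays. LTF was higher in 152 of the 377 regions and lower in 225. With the marked spots kept, 100 higher and 258 lower regions met the rule, of which 65 and 113 were members. The regions were chosen by these ratios themselves, so the difference between LTF and the other arrays is described here and not tested.

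All 5 groups were male Sprague Dawley rats aged 20 weeks, with 3 biological replicates each, 1 array per rat and DNA from peripheral blood. The LTF rats had been made diabetic with 45 mg/kg streptozotocin and received LTF at 2 g/kg per day by gavage together with 1.5 IU of insulin per day. The CaD rats had the same streptozotocin dose and were gavaged daily with 0.25 g/kg calcium dobesilate, which is prescribed against diabetic retinopathy, with the same insulin dose. A further group of diabetic rats received another Chinese formula, for which the labels state neither a dose nor whether insulin was given. The DR model rats, the model of diabetic retinopathy, had streptozotocin and distilled water and no insulin named, and the control rats had citric buffer in place of streptozotocin. A difference between LTF and the DR model therefore cannot be told apart from one of insulin. The labels do not say which blood cells were present, and positions without genes allow no check of the tissue against marker genes.

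Methylated DNA immunoprecipitation, MeDIP, uses an antibody against methylated cytosine to pull down fragments of genomic DNA. In mammals most methylated cytosines lie next to a guanine, and CpG-rich promoters are usually unmethylated while the rest of the genome is usually methylated. Here the pulled-down DNA carried Cy5 and the untreated input DNA Cy3, and both were hybridised to the same tiling array. A log2(MeDIP/input) above 0 means a higher recovery than at the median probe of that array. The ratio depends on the density of CpGs under a probe and on the behaviour of the probe itself, so each region is compared only with itself on other arrays. On arrays of this design the probes differ in length, and longer probes are commonly placed on sequence poor in G and C.

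Each array carried 172669 probes, of which 171421 lay in the 16782 regions. The median processed signal of an array was 479 to 617 intensity units in the MeDIP channel and 546 to 653 in the input channel. Between any 2 arrays the log2 ratios had a correlation of 0.805 to 0.953. The arrays were read in 6 scans, told apart by their time stamps, and the 3 LTF arrays made up the fourth scan alone. LTF treatment and that scan cannot be told apart anywhere below. Precision is limited by having 3 arrays in a group.

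The 377 regions were 2.25% of all regions. The 152 higher regions were 0.906% and the 225 lower ones 1.34%. The same rule applied to each other group of 3 arrays found 84 regions for CaD, or 0.501%, and 65 for the other formula, or 0.387%, 11 of them higher (0.0655%). It found 172 for the DR model, or 1.02%, and 589 for control, or 3.51%. LTF thus had more such regions than CaD, the other formula and the DR model, and fewer than control. Lower regions also outnumbered higher ones for control, with 162 higher (0.965%) and 427 lower (2.54%). In the DR model the balance was the other way, with 138 higher (0.822%) and 34 lower (0.203%). Requiring only the remaining 2 LTF arrays to stand apart, by leaving out LTF replicate 1, 2 or 3, gave 277, 261 or 505 higher regions and 472, 482 or 469 lower ones. LTF replicate 3 was thus the array that held back most of the higher regions.

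Most members stood apart by a small distance. In the higher regions LTF exceeded the mean of the other 12 arrays by a median of 0.23 on the log2 scale, with a range of 0.08 to 0.64. In the lower regions the median difference was -0.20, with a range of -0.63 to -0.06. The gap between the nearest LTF array and the nearest other array had a median of 0.0247 among higher regions and 0.0280 among lower ones. It was under 0.01 in 78 regions and above 0.1 in only 34. A difference of at least 0.5 in size was reached by 11 of the 377 regions, 9 higher and 2 lower. Over all regions 22, or 0.131%, reached it, and differences in the regions that were not members ran from -0.66 to 0.76. The SD over the 3 LTF arrays had a median of 0.0572 in the higher regions, against 0.123 over the 12 other arrays. In the lower regions these medians were 0.0446 in LTF and 0.0869 over the others. Over all regions they were 0.0785 in LTF and 0.120 over the 12 other arrays. Those 12 arrays span several groups, and the rule favours regions where the LTF arrays lie close together.

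**Figure D1:**
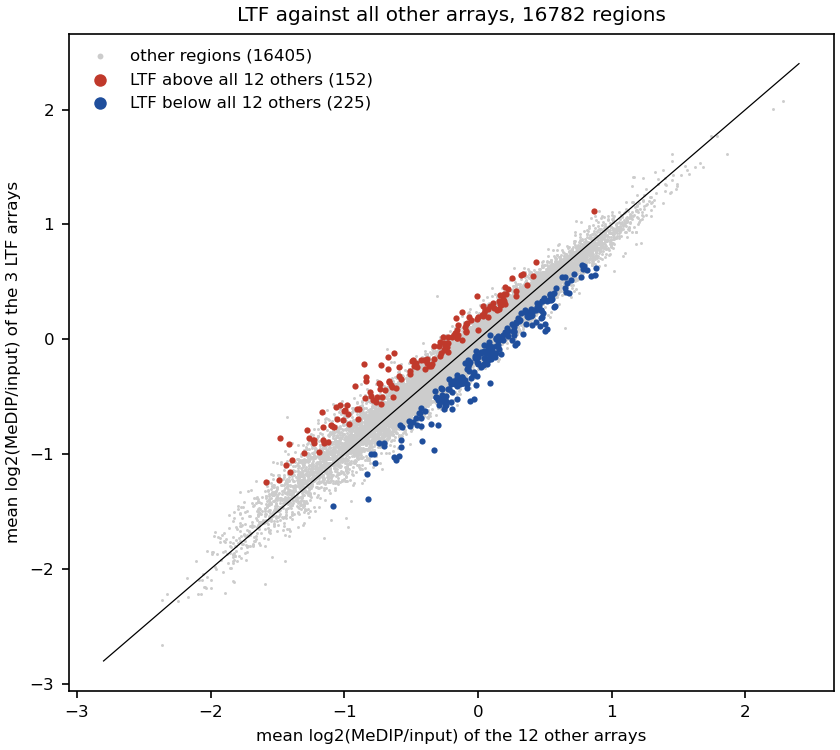
Mean log2(MeDIP/input) of each region over the 3 LTF arrays (vertical axis) against its mean over the 12 other arrays (horizontal axis), with all 16782 regions in grey, the 152 higher members in red and the 225 lower members in blue. The members lie off the line of equal values, some grey points lie further off it, and the higher members gather at low ratios.

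Higher and lower members lay at different levels. The mean ratio of the 12 other arrays had a median of -0.37 in the higher regions, against -0.03 in all regions, and it was above 0 in 33 of the 152, or 21.7%. In the lower regions that median was 0.07, and the mean ratio was above 0 in 126 of the 225, or 56%, against 47.3% of all regions. When all regions were divided into 5 equal bins by the mean of the 12 other arrays, the higher members numbered 63, 36, 27, 22 and 4 from the lowest bin to the highest. The lower members numbered 16, 42, 61, 46 and 60 in the same bins. The median difference between LTF and the other arrays over all regions of a bin ran from 0.05 in the lowest bin to -0.04 in the highest, so that over all regions LTF ran slightly above the others at low ratios and slightly below them at high ones. In 23 higher and 43 lower members the LTF mean and the mean of the other arrays lay on opposite sides of 0, which is 15.1% and 19.1%, against 6.06% of all regions, and choosing members by their difference raises these shares.

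Members also differed in the length of their probes, which the rule did not use. The mean probe length of a region had a median of 50.2 nucleotides in the higher regions, 46.9 in the lower ones and 48.4 in all regions. Of 7449 regions with a mean below 48 nucleotides, 32 were higher and 156 lower. Of 7458 regions between 48 and 54 nucleotides, 84 were higher and 69 lower. Of 1875 regions above 54 nucleotides, 36 were higher and 0 were lower. Probe length tracked the ratio over the whole array: the 23496 probes of 60 nucleotides averaged -0.93 on the LTF arrays and -1.03 on the others, and the 83563 probes of 45 nucleotides averaged 0.28 on the LTF arrays and 0.32 on the others. The 2 differences, 0.11 and -0.04, have the signs of the classes in which higher and lower members were most frequent. When each array was centred separately at each probe length, 71 higher and 363 lower regions stood apart, and 57 of the 152 higher and 172 of the 225 lower members were among them. Member regions were of ordinary size, with medians of 9 probes and 1637.5 bp in the higher ones, 10 probes and 1646 bp in the lower ones, and 10 probes and 1655 bp in all regions.

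The members were spread over the genome. Chromosome 1, with 2316 regions, held 23 higher and 32 lower members, and chromosome 3, with 1401 regions, held 15 and 25. Chromosome X had 7 higher and 1 lower member among 606 regions, and chromosome 11 had 8 and 1 among 423. Chromosome 19 leaned the other way, with 5 higher and 12 lower members among 426 regions. Another member lay within 1 Mb of 159 members, or 42.2%, near the 41.2% of all regions that had a member within that distance. The densest stretch by count lay on chromosome 10 from 86787952 to 90825272 (rn4), where 8 of 113 regions were members, 3 higher and 5 lower. On chromosome 19 from 53556889 to 54608384, 5 of 19 regions were members, 3 higher and 2 lower. On chromosome 3 from 67977609 to 69710684, 4 higher members and 1 lower one fell among 67 regions, and 2 of these 4 are described next. These stretches were picked for their counts.

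Among higher members, the widest gap was on chromosome 3 from 68657859 to 68659655, a region of 9 probes. The LTF arrays read -0.34, -0.27 and -0.17 there, and the 12 other arrays ran from -0.87 to -0.57 with a median of -0.64. The difference of the means was 0.42. It came from few probes: LTF was above the other arrays in 5 of 9, and at the probe 444 bp downstream of the centre the LTF arrays read -0.06, 0.00 and -0.07, against -3.03 to 0.16 with a median of -1.73 on the other arrays. At the probe 228 bp downstream the LTF mean was -0.45, against -1.64 on the other arrays. With spots not well above background left out, the difference of the region was 0.09 and it no longer stood apart.

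The next widest gap was on chromosome 1 from 142339755 to 142341352. Its 8 probes held no outlier spot on any array, and LTF was above the mean of the other arrays in 8 of 8 probes. The LTF arrays read -0.33, -0.43 and -0.33. The CaD arrays read -0.83, -0.66 and -0.66, those of the other formula -0.87, -0.83 and -0.74, those of the DR model -0.97, -1.01 and -0.85, and those of control -0.86, -0.81 and -1.01. The difference of 0.47 was uneven along the region, since 1 end probe, 769 bp downstream of the centre, read 1.02 on average in LTF and -0.76 on the other arrays. Without the probe of largest difference the region still stood apart, by 0.29. It no longer stood apart with dim spots left out, at 0.08, or with the median of the probes in place of their mean, at 0.35. Leaving only the probes present on all 15 arrays, or requiring at least 5 probes, could not change it. On a log2 scale centred per array, the MeDIP signal was 0.69 higher and the input signal 0.22 higher in LTF there. In the region on chromosome 3 from 68657859 to 68659655, by contrast, the MeDIP signal differed by -0.11 and the input signal by -0.52, so that the higher ratio came with a lower input signal.

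Chromosome X from 128789630 to 128790740, with 7 probes, had the largest difference of all higher members, 0.64. LTF read -0.10, -0.32 and -0.22, and the others ran from -1.24 to -0.54 with a median of -0.78. LTF was above in 4 of 6 probes with a value, and 19.0% of LTF spots and 0% of the others were marked as outliers. Over the probes left on all 15 arrays the difference was 0.55. On those probes the MeDIP signal differed by -0.13 and the input signal by -0.66, again a lower input. The region no longer stood apart with dim spots left out, at 0.33. Nor did it with the median of the probes, at 0.52, or without the probe of largest difference, at 0.45. This region was dim, with MeDIP signal not well above background in 47.6% of LTF spots and 56% of spots on the other arrays. On chromosome 3 from 69708965 to 69710684, a region of 10 probes averaging 59.8 nucleotides, LTF read -0.98, -0.82 and -0.92 and the others ran from -1.80 to -1.15 with a median of -1.33. LTF was above in 9 of 10 probes and no spot was marked as an outlier, but 70.0% of LTF spots and 79.2% of the others were dim. A dim spot is one not well above background, so these means rest in large part on spots of weak signal.

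The remaining 8 of the 12 higher regions named by their gap had differences of 0.19 to 0.62. On chromosome 10 from 44577101 to 44578781 the LTF arrays read -0.71, -0.73 and -0.81, against -1.32 to -0.95 with a median of -1.10 on the others, with no outlier spot in its 10 probes. Chromosome 16 from 17547298 to 17549058 was higher in 10 of 11 probes, with LTF at -0.42, -0.52 and -0.59 and the others from -1.09 to -0.71 with a median of -0.84. Only 2 of the 12 had LTF means above 0. The first of these was chromosome 1 from 24278541 to 24280303, where LTF read 0.36, 0.45 and 0.31 and the others ran from -0.23 to 0.20 with a median of -0.01. There 15.2% of LTF spots were marked as outliers, LTF was above in 5 of 10 probes, and the difference of 0.38 was 0.29 with those spots kept and 0.20 on probes left on all arrays, and the region stood apart under neither. The other lay on chromosome 12 from 19693256 to 19694907, where LTF read 0.30, 0.28 and 0.28 and the others ran from -0.02 to 0.17 with a median of 0.11. In that region 3.33% of LTF spots and 12.5% of the others were dim. With dim spots left out, it and chromosome 3 from 145643214 to 145644519 still stood apart among the 12 named. The region on chromosome 3 lost its call with outlier spots kept and on probes left on all arrays, among other alternatives. That on chromosome 12 lost its call with normexp background correction, at 0.07, with loess, at 0.10, and with the median of the probes, at 0.16. Of those that lost the call with dim spots left out, chromosome 3 from 69708965 to 69710684 still differed by 0.43 and chromosome 1 from 224441433 to 224443193 by 0.37.

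**Figure D2:**
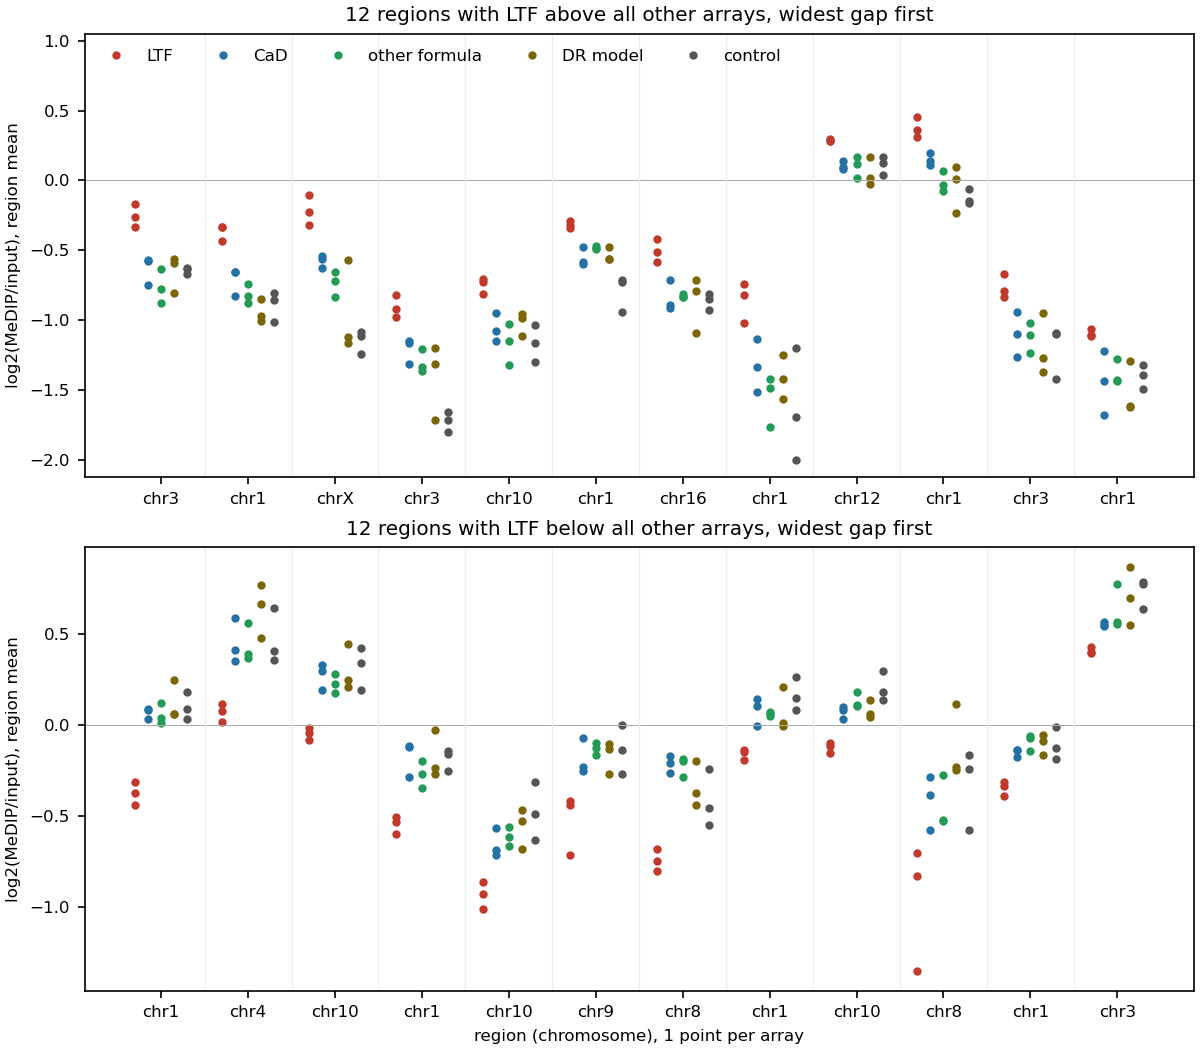
Mean log2(MeDIP/input) of named regions on each of the 15 arrays, with the LTF arrays at the left and the control arrays at the right of the points of each region. The LTF points lie outside the range of the other 12 in every region, as the rule requires, and gaps narrow from left to right.

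The widest gap among lower members belonged to a short region on chromosome 1 from 82039053 to 82039420, with 3 probes. LTF read -0.44, -0.32 and -0.38, and the 12 other arrays ran from 0.01 to 0.25 with a median of 0.07. Its middle probe, the highest of the 3 on every array, was marked as an outlier spot on all 3 LTF arrays and on none of the other 12, so that the LTF means cover 2 probes and the others 3. At that probe the marked LTF spots read 0.92, 0.81 and 0.84, against 0.70 to 1.21 on the other arrays. With outlier spots kept the difference was -0.08, against -0.46 as measured by the rule. Over the probes left on all 15 arrays it was -0.02. Under neither treatment did the region stand apart.

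The next lower region by gap lay on chromosome 4 from 165653728 to 165654254, with 4 probes. LTF read 0.11, 0.02 and 0.08 and the others ran from 0.35 to 0.77 with a median of 0.44. LTF was below the others at each of the 4 probes, with differences of -0.36 to -0.19 when marked spots are counted. The difference was -0.43. It was -0.33 with outlier spots kept, where the region still stood apart, and -0.29 on probes left on all arrays and -0.24 with loess, where it did not. On chromosome 1 from 202936068 to 202937758, with 10 probes, LTF read -0.53, -0.60 and -0.50 and the others ran from -0.34 to -0.03 with a median of -0.22. LTF was below in 9 of 10 probes, the MeDIP signal differed by -0.48 and the input signal by -0.13 on the log2 scale, and the region failed to stand apart only under normexp background correction among the 12 alternatives, with a difference of -0.05.

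Only 2 of the 377 members stood apart under all 12 alternatives, and both were lower. Of these alternatives, requiring at least 5 probes cannot change regions of this size. The first lay on chromosome 10 from 62473732 to 62474766, with 7 probes of 45 nucleotides. LTF read -0.08, -0.01 and -0.04, CaD 0.33, 0.20 and 0.30, the other formula 0.28, 0.18 and 0.22, the DR model 0.25, 0.44 and 0.21, and control 0.34, 0.19 and 0.42. At its probe 179 bp downstream of the centre, the spots were marked as outliers on all 3 LTF arrays and on 0 of the 12 others. The difference of -0.33 was -0.22 with outlier spots kept and -0.20 on probes left on all arrays. At the probe -180 bp from the centre LTF was above the others, by 0.15. The difference of the region ranged from -0.39 to -0.14 over the alternatives. The second lay on chromosome 3 from 155130095 to 155131622, with 8 probes. LTF read 0.43, 0.40 and 0.40, CaD 0.55, 0.57 and 0.55, the other formula 0.77, 0.55 and 0.57, the DR model 0.70, 0.87 and 0.55, and control 0.79, 0.64 and 0.78. LTF was below the others at every probe there, with differences of -0.39 to -0.07 when spots marked as outliers are counted. None of its spots was dim. The MeDIP signal hardly differed, at -0.01, while the input signal was 0.23 higher in LTF. These 2 regions were singled out after their values were seen.

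Of the other 7 named lower regions, 6 had differences of -0.45 to -0.23. The largest of these, on chromosome 8 from 114794468 to 114796002 with 28.6% of LTF spots marked, was -0.12 with outlier spots kept and -0.13 on shared probes. That on chromosome 10 from 10475120 to 10476489, with 29.2% marked, was -0.24 and became -0.05 with spots kept and -0.11 on shared probes, and neither region stood apart under either treatment. The seventh, on chromosome 8 from 69589292 to 69589744 with 3 probes, had the largest difference of all lower members, -0.63, from LTF values of -0.83, -0.71 and -1.35 and other values of -0.58 to 0.11 with a median of -0.28. A probe was missing from the LTF means there too, 33.3% of its LTF spots being marked as outliers and none of the others. Over the probes left on all arrays LTF was higher by 0.13. On chromosome 9 from 47384562 to 47386359 LTF read -0.44, -0.71 and -0.42 and the others ran from -0.27 to 0.00 with a median of -0.14. The difference of -0.37 was -0.11 with outlier spots kept, when 25.0% of LTF spots and 3.47% of the others were restored, and the region then no longer stood apart.

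**Figure D3:**
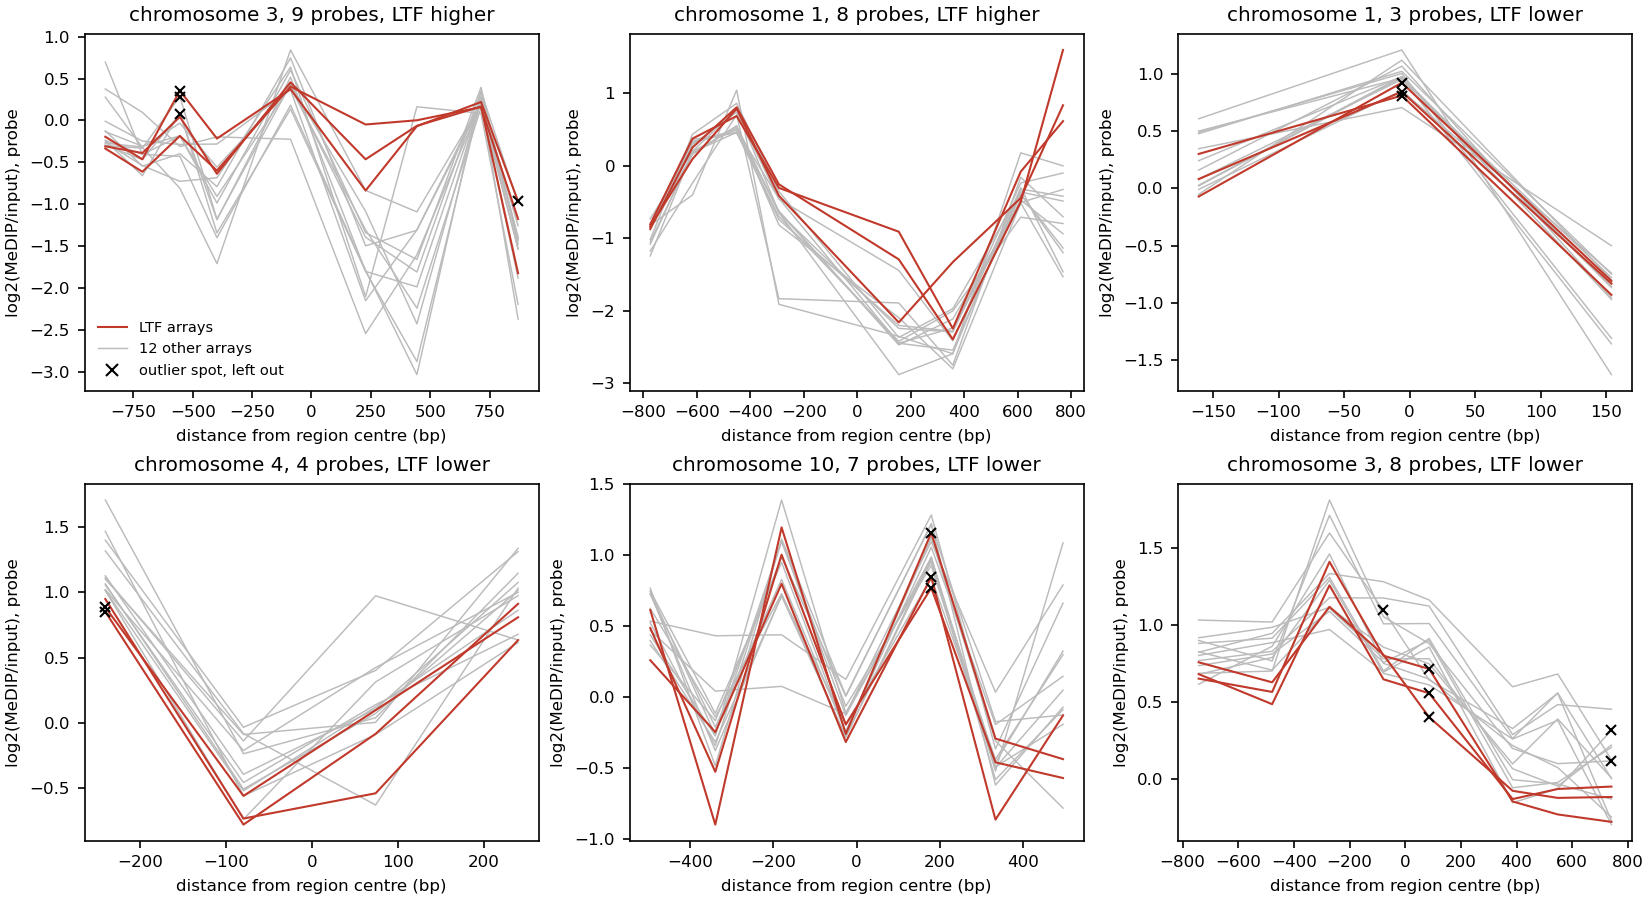
Log2(MeDIP/input) of single probes along 6 member regions, by distance from the centre of the region in bp, with the LTF arrays in red, the 12 other arrays in grey and crosses on spots marked as outliers. In the first pair of regions (LTF higher) a few probes carry the difference, and in the third the middle probe is crossed on all 3 LTF arrays. In the last the mean of the red lines lies below that of the grey lines at every probe, though single red lines do not.

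Regions at the edge of the rule differed little from those just beyond it. The higher members with the smallest gap were on chromosome 2 from 113030885 to 113032513 and chromosome 17 from 28309281 to 28310934. Their lowest LTF arrays read -0.49 and -0.11, which to 2 decimals is also what the highest other array read in each. Just outside, on chromosome 4 from 76956184 to 76957817, the LTF arrays read 0.14, 0.06 and 0.10 and the highest other array 0.06. On chromosome 1 from 155420681 to 155422381 they read 0.09, 0.29 and 0.26, with the highest other array at 0.09. Among lower regions, those just inside were on chromosome 5 from 156142556 to 156143229, with a highest LTF array of 0.35 and a lowest other array of 0.35, and on chromosome 3 from 143084891 to 143086543, where both read -0.20. Those just outside were on chromosome 14 from 35521460 to 35523228, where both read 0.00, and on chromosome 7 from 117901918 to 117903626, where both read -0.19.

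Spots marked as outliers by the scanner software were left out array by array, and the LTF arrays had the most. They made up 4.15%, 6.18% and 5.57% of the region probes on the LTF arrays and 0.136% to 2.63% on the 12 other arrays. The means were 5.30% ± 1.04 (SD, n = 3) in LTF and 1.20% ± 0.934 (SD, n = 12) in the others, a difference of 4.10 percentage points. An exact two-sided permutation test over all ways of choosing 3 of the 15 arrays gave p = 0.0022, the smallest it can give, and 0.00659 after Benjamini-Hochberg adjustment over 3 shares tested. All 3 LTF arrays lay above all 12 others, again in a scan of their own. The marks were for uneven spots, in the MeDIP channel in 6109 of 7186 marked spots of LTF replicate 1, 9547 of 10700 of replicate 2 and 8240 of 9620 of replicate 3. Marked spots were bright: on the LTF arrays their median MeDIP signal was 8.56 to 15.9 times and their median input signal 6.12 to 10.4 times that of unmarked spots. They also read higher than their neighbours, by 0.36 to 0.44 on the log2 scale above the mean of their own region on the LTF arrays and by 0.24 to 0.60 on the others.

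The lower members held more marked LTF spots than other regions. In the probes of lower members 9.36%, 11.2% and 10.1% of the spots of the 3 LTF arrays were marked, against at most 2.51% on any other array. In those of higher members the LTF shares were 3.15%, 5.74% and 6.02%, against at most 2.73%. A probe marked on all 3 LTF arrays occurred in 99 of the 225 lower members, or 44%, in 14 of the 152 higher members, or 9.21%, and in 14.9% of all regions. Of regions without a marked LTF spot 0.676% were lower members, and of those with more than 20% of LTF spots marked 7.04% were. The share of higher members changed little over the same classes, at 0.917% and 1.07%. Since the marks decide which probes enter the LTF mean, these shares describe the members and support no difference.

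**Figure D4:**
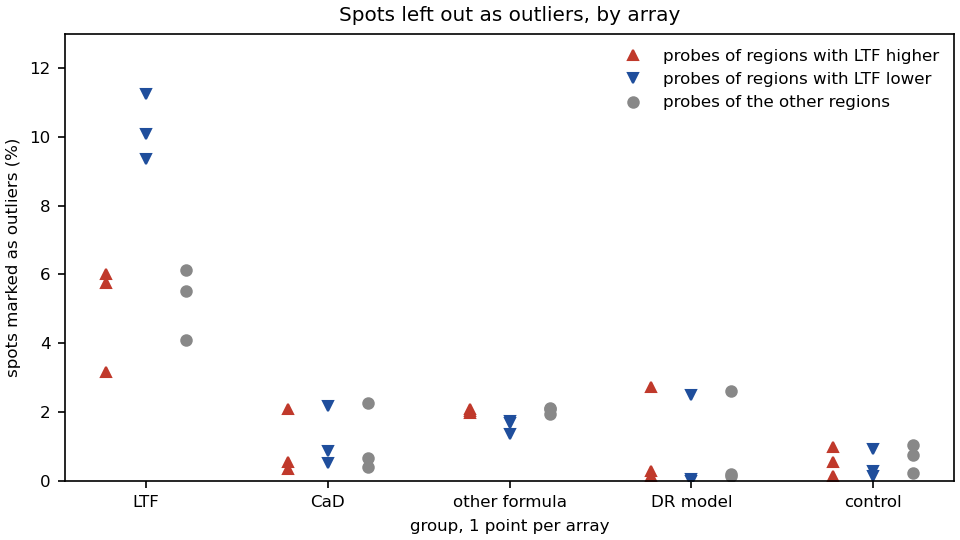
Percentage of spots marked as outliers on each array, in the probes of higher members, of lower members and of all other regions, with the LTF arrays at the left. The LTF arrays stand at 9.36% to 11.2% in lower members and at 4.09% to 6.12% in the other regions, and no other array passes 2.73%.

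Membership changed when outlier spots were treated in another way. With these spots kept, 100 higher and 258 lower regions stood apart, of which 65 and 113 were members. With only the probes left on all 15 arrays, 130 and 124 did, of which 87 and 78 were members. Under both treatments 45 of the 152 higher members, or 29.6%, and 72 of the 225 lower ones, or 32%, stood apart. For lower members this share followed the marked spots: 39 of the 45 without a marked LTF spot stood apart under both, 24 of 80 with up to 10% marked, 8 of 67 with 10% to 20% and 1 of 33 with more than 20%. For higher members the counts were 25 of 61, 19 of 67, 1 of 19 and 0 of 5. LTF stayed higher in 152 and 151 of the 152 higher members and lower in 222 and 223 of the 225 lower ones, with spots kept and on shared probes. The sign was the same in 14140 and 14434 of the 16405 other regions, and since the rule fixed it and most spots are shared, it is no sign of stability. The median differences were then 0.20 and 0.21 in higher members and -0.16 and -0.16 in lower ones.

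Dim spots followed the level of the regions. MeDIP signal was not well above background in 11.3% ± 1.24 (SD, n = 3) of region probes on the LTF arrays and 13.7% ± 3.64 (SD, n = 12) on the others, with p = 0.262 in the exact two-sided permutation test and 0.392 after adjustment. For input signal the shares were 5.52% ± 0.657 (SD, n = 3) in LTF and 5.80% ± 1.48 (SD, n = 12) in the others, with exact p = 0.765, also 0.765 after adjustment. In the probes of higher members the MeDIP share was 12.5% to 15.3% on LTF arrays and 16.1% to 31.7% on the others, with no overlap. In those of lower members it was 7.96% to 10.1% on LTF arrays and 6.56% to 15.6% on the others. Dimness depends on the MeDIP signal that enters the ratio, so these shares describe the members and support no difference. With spots dim in either channel left out, 156 higher and 190 lower regions stood apart, and only 31 of the 152 higher and 61 of the 225 lower members were among them.

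Both channels differed at the members. Over the probes left on all 15 arrays, and with each channel centred on its array's median, the MeDIP signal of higher members was a median of 0.14 higher in LTF on the log2 scale, and the input signal differed by a median of -0.07. Over all regions these medians were 0.02 and 0.04. In lower members the MeDIP signal differed by a median of -0.06 and the input signal by 0.09. The members were chosen by the ratio of these channels, so some such difference follows from the rule. The input channel holds no antibody step, and what moves it was not tested.

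The other groups were not level at the members. In the higher regions the medians of the group means were -0.17 for LTF, -0.31 for CaD, -0.35 for the other formula, -0.37 for the DR model and -0.42 for control. In the lower regions they were -0.13 for LTF, 0.04 for CaD, 0.03 for the other formula, 0.09 for the DR model and 0.09 for control. The group mean nearest to LTF was that of CaD in 90 of the 152 higher members and that of the other formula in 43, and among the 225 lower members it was the other formula in 103 and CaD in 63. Of the 377 members, 31 had the DR model nearest and 47 control. Over all regions, the highest of the 4 other group means was CaD in 33.1%, the DR model in 29.4% and the other formula in 14.7%, and the lowest was control in 41.1%, the other formula in 25.4% and CaD in 16.6%.

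None of the comparisons among the other groups called a member. In limma fits over all 16782 regions with Benjamini-Hochberg adjustment, 0 members and 0% of all regions passed an adjusted p of 0.05 for the DR model against control, for CaD against the DR model and for the other formula against the DR model. At an unadjusted p under 0.05 there were 40 members, or 10.6%, against 12.7% of all regions, 44, or 11.7%, against 15%, and 45, or 11.9%, against 15.1%. Pooled over both directions the member shares were below those of all regions. Taken apart, they were 15.1% in higher and 7.56% in lower members for the DR model against control. For CaD against the DR model they were 13.2% and 10.7%, and for the other formula against the DR model 7.24% and 15.1%. The fits take their spread from all 15 arrays, and the rule holds the 12 others to one side of LTF. These shares therefore describe the members only. The smallest adjusted p among members was 0.112 for the DR model against control, on chromosome 6 from 95547749 to 95549192, where the DR model arrays read -0.85, -0.58 and -0.65 and the control arrays ran from -1.07 to -0.97. For CaD against the DR model it was 0.113, on chromosome 14 from 18534428 to 18536019, where CaD read -0.22, -0.18 and -0.25 and the DR model 0.04, 0.10 and 0.01. For the other formula against the DR model it was 0.103, on chromosome 10 from 99858561 to 99860134, where the other formula read 0.34, 0.29 and 0.34 and the DR model 0.81, 0.57 and 0.64. Without DR model replicate 3, 22 members passed for CaD against the DR model and 23 for the other formula against the DR model, among 8.51% and 6.76% of all regions, and without DR model replicate 2, 4 passed for the DR model against control, among 0.167% of all regions. With loess within arrays 6 members passed for the DR model against control, among 1.49% of all regions.

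The direction of these differences was one-sided among members. CaD was above the DR model in 128 of the 152 higher members, or 84.2%, and in 63 of the 225 lower ones, or 28%, against 51.9% of all regions. The other formula was above the DR model in 76.3% and 22.2%, against 44.1% of all regions. With arrays centred but not scaled, both treated groups thus lay on the LTF side of the DR model at most members. The medians were 0.10 and 0.05 in higher members and -0.06 and -0.07 in lower ones. The DR model was above control in 73.0% and 58.2%, against 63.6% of all regions. The rule holds all 12 other arrays to one side of LTF but fixes no order among them, and the comparisons share the DR model arrays, so these shares are given without a test. The values within scans and scan days varied. Within the sixth scan, CaD replicates 1 and 2 were above DR model replicate 3 in 59.2% of higher members and 32% of lower ones, against 50.5% of all regions. On the first scan day, CaD replicate 3 was above DR model replicate 2 in 77.6% of higher members and 22.7% of lower ones, against 45.3% of all regions, and the other formula was above it in 77.0% and 26.2%, against 45.6%. After arrays were scaled to one interquartile range, the other formula was above the DR model in 50% of higher members and 24.4% of lower ones, against 37.9% of all regions. CaD was then above the DR model in 64.5% of higher members and 29.3% of lower ones, against 47.7% of all regions.

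The members overlapped in part with regions called in comparisons of LTF with single groups, all of which use the arrays of the rule and serve as description only. For LTF against the DR model limma called 151 regions, or 0.9%, 40 higher and 111 lower. Of these 61 were members, which is 40.4% of the calls and 16.2% of the members. For LTF against control it called 1221, or 7.28%, with 171 members among them, 14.0% of the calls and 45.4% of the members. For LTF against CaD it called 3 regions, or 0.0179%, all of them lower members, and for LTF against the other formula 0.

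How far the set depends on processing can be read from the 12 alternatives together. A member stood apart under a median of 5 of 12 alternatives if higher and 6 of 12 if lower, and 14 higher and 25 lower members did so under at least 9. Requiring at least 5 probes left 148 higher and 213 lower members, whose values it cannot change. Scaling to one interquartile range left 115 higher and 188 lower members, although 326 lower regions stood apart in all, and quantile normalization left 114 and 169. The median of the probes in place of their mean left 35 and 35. The authors' deposited table of processed values left 37 and 41, and leaving out the probe of largest difference in each region left 34 and 76.

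**Figure D5:**
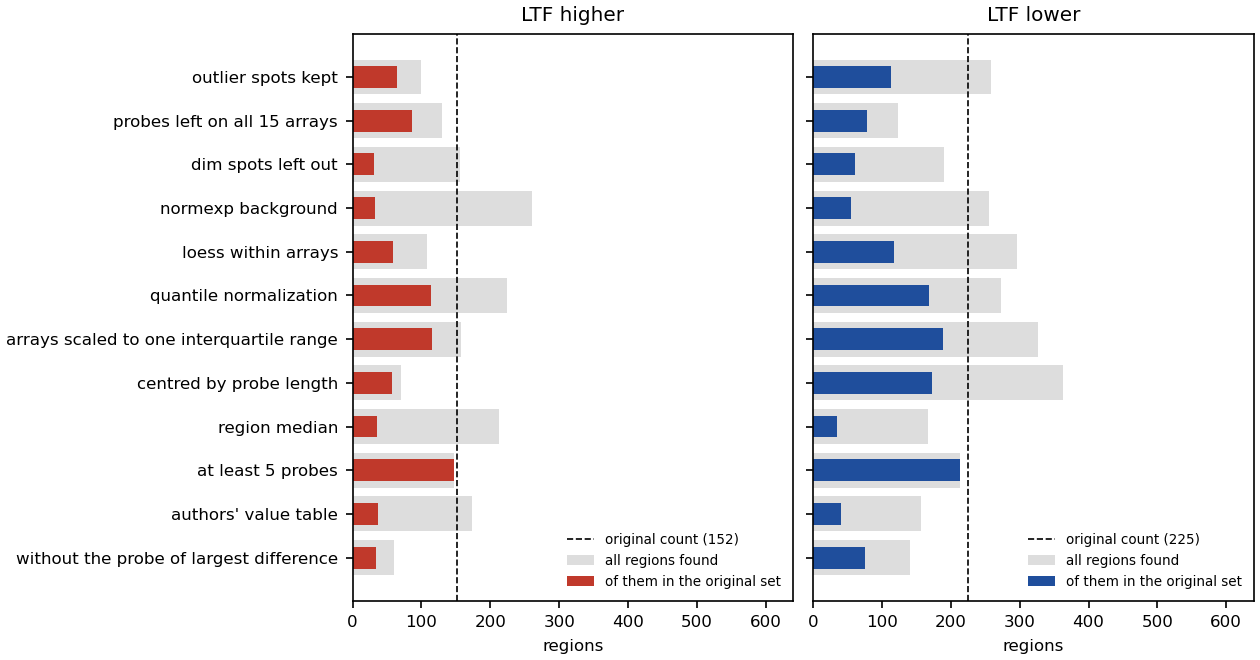
Number of regions that stood apart in LTF (horizontal axis) under each of 12 alternatives, with LTF higher on the left and lower on the right. Grey bars are all regions found, coloured bars those among the original members, and dashed lines mark 152 and 225. Coloured bars are shortest for dim spots left out, normexp background, the region median, the authors' table and, for LTF higher, the left-out probe.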

How the data were processed

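Blood DNA of 15 rats was measured on 2-colour arrays, MeDIP in Cy5 and input in Cy3, per the labels. Per the file headers, spots were read with Feature Extraction (version 11.0.1.1) and positions are those of rn4. The deposited processed intensity had its background removed and its dyes balanced linearly, per the file headers; the files also hold raw medians, marks of 0 or 1 for outlier and dim spots and the authors' log10 ratio. The authors' deposited table of processed values is treated as a score, because no source used here gives its log base, direction or centring, and served as an alternative. limma is named in the submitters' processing notes, with no role.

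From these, log2 ratios of the processed signals were taken for 172669 probes after 6856 control spots and all outlier spots were left out, and each array was centred on its median, with no loess or quantile step. Of 17668 runs of probes, 884 had fewer than 3 probes and 2 had an array with no value. limma (version 3.58.1, R 4.3.3, the data.table package) fitted a mean per group over all 15 arrays, with Benjamini-Hochberg adjustment over all regions. Shares of spots per array were compared by exact permutation. The regions named were the 12 higher and 12 lower members with the largest gap between the nearest LTF and other arrays, the 2 members and the 2 other regions nearest to the rule in each direction, and the member with the smallest p in each comparison among the other groups. Normexp correction, with an offset of 50, used median signals, as the files used here hold no mean signals. The rule and the fit were tested on simulated data. The members and the lists were chosen with earlier results of these data known. Same-numbered replicates of 2 groups did not deviate together: their correlations ran from -0.42 to 0.33. No gene is named and no sequence shown, because the files pair positions with no gene and the genome table at hand is of another assembly.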

Additional observations from a re-analysis of the deposited data

How the results depend on the processing

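The count of 152 higher regions was 100 with outlier spots kept, 260 with normexp background, 71 centred by probe length and 60 without the probe of largest difference, an alternative chosen after seeing the data. The count of 225 lower regions was 124 on probes left on all arrays, 363 centred by probe length and 141 without that probe. Leaving out 1 array at a time gave 158 to 505 higher and 233 to 482 lower regions. The median difference over the named regions, 0.39 in higher ones, was 0.17 with dim spots left out, 0.0927 with normexp, 0.13 in the authors' table and 0.25 without the probe of largest difference, and 0.37 to 0.41 with 1 array left out. In lower ones, -0.35, it was -0.19 with outlier spots kept, -0.16 on shared probes, -0.18 with normexp, -0.23 with loess and -0.0942 in the authors' table, and -0.37 to -0.33 with 1 array left out. Of 644 values recomputed for the 24 named regions, 527 moved by less than the spread between replicates, 115 by more, and 2 changed sign. Both sign changes were on chromosome 8 from 69589292, at 0.126 on shared probes and 0.104 in the authors' table. For each region 15 of the recomputed values leave out 1 array, which moves a mean little. Requiring at least 5 probes cannot move a value either, so this tally does not measure stability under other processing. The number of members called was 6 with loess for the DR model against control and 1 in the authors' table for the other formula against the DR model. With 1 array left out the number of members called was 0 to 4 for the DR model against control, 0 to 22 for CaD against the DR model and 0 to 23 for the other formula against the DR model. The replicate block called 0 members in all 3 comparisons, as did scan as a random or fixed block, and the replicate numbers do not pair the samples. The main fit called 0% of all regions too, and the fit with scan as a fixed block had 8 terms, which leaves little to measure spread. These 0 calls are therefore no sign of stability. The difference in marked spots stayed at 3.66 to 4.67 percentage points, that in dim MeDIP spots at -3.06 to -1.66 and that in dim input spots at -0.51 to 0.0986, which changed sign without LTF replicate 3. The cause of these changes was not tested, except that leaving out an array or a probe loosens or shortens what the rule compares.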
